A study of Rattus norvegicus with 31 samples.

Results

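The transcriptional state of tail motor neurons 7 days after spinal transection was compared with the state 2 days after it. The 5 arrays titled Spi-7 were set against the 6 arrays titled Spi-2, so that 11 of the 31 arrays of the series carried the comparison, over all 12913 probe sets that are no Affymetrix control. Adult male Wistar rats had a laminectomy at L2-L3 and a complete transection of the cord at S2, and their tail motor neurons, labelled with Fluoro-Gold beforehand, were cut by laser from S3 and S4 at day 2 (Spi-2) or day 7 (Spi-7). The 4 Control animals, used here for reference levels and for tests of each day against them, were uninjured and had no sham operation. Each array stood for 1 animal, whose RNA came from a pool of laser-cut somata and passed through linear amplification before hybridization to an Affymetrix rat genome array. The 16 arrays of days 21 and 60 came from an earlier study. They entered the estimate of the spread between animals and the choice of 1 probe set per gene.

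Transection at S2 removes the descending and propriospinal input of the sacral motor neurons and leaves their own axons to the tail muscles uncut. The tail is first limp and becomes spastic over the following weeks. In a cord below a lesion, microglia and astrocytes react within days, astrocytes by making more of the filament protein Gfap, and the section around a labelled soma holds processes of these cells. Neurons under stress can induce genes such as Atf3, a transcription factor of injured neurons. Days 2 and 7 both lie in the early phase.

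Levels are the deposited log2 summaries. A difference is the mean of Spi-7 minus the mean of Spi-2 on this scale, and the ± after it is the standard error (SE) of a linear model fitted with limma to all 31 arrays. A p called unadjusted is that of 1 probe set alone, and an adjusted p has the Benjamini-Hochberg correction for the 12913 probe sets tested. Markers of motor neurons and markers of glia were both measured. The mean level of 5 motor neuron markers was 7.99 to 8.56 in Spi-2 and 8.09 to 8.58 in Spi-7. That of 11 astrocyte markers was 8.04 to 8.40 and 7.80 to 8.70, and that of 11 oligodendrocyte markers 7.41 to 7.85 and 7.23 to 8.18. The mean over all genes was 6.58 to 6.67 and 6.54 to 6.64. Peripherin (Prph), an intermediate filament of motor neurons, stood at 11.83 to 13.10 and the choline transporter Slc5a7 at 9.85 to 11.33 in the 11 animals. Chat, the enzyme that makes acetylcholine, was not analysed here. Correlations between the 11 arrays lay between 0.907 and 0.987 across groups, between 0.925 and 0.982 within Spi-2 and between 0.936 and 0.989 within Spi-7. A pair of arrays stood apart before any gene was compared. Spi-2 replicate 4 correlated with the other 10 at 0.907 to 0.953 and Spi-7 replicate 5 at 0.907 to 0.959, whereas pairs within a group that involved neither reached 0.953 to 0.982 (Spi-2) and 0.973 to 0.989 (Spi-7). The 3′ minus 5′ difference of the Gapdh control sets, which grows as amplified RNA gets shorter, was 2.82 ± 0.36 (log2, SD, n = 6) in Spi-2 and 3.01 ± 0.37 (SD, n = 5) in Spi-7. An exact two-sided permutation test over the 462 ways to draw 5 of 11 arrays gave p = 0.403 for it and p = 0.589 for the interquartile range of the arrays. In Control the Gapdh value was 2.01 ± 0.33 (SD, n = 4), with a lower mean than in both injured groups. Comparisons against Control therefore also compare arrays that differ in this measure, and its part in them was not tested.

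No probe set differed between day 7 and day 2 at an adjusted p under 0.05 in limma (0 of 12913, 0%), and the smallest adjusted p was 0.999. At an unadjusted p under 0.05, 460 probe sets (3.56%) were counted, with 313 lower in Spi-7 (2.42%) and 147 higher (1.14%). Where no probe set differs, a share of 0.05 passes this threshold on average, which is more than was counted. Later counts at this threshold describe the values and are no calls. The balance of directions rested on single arrays and weights: without Spi-7 replicate 5 there were 277 lower and 281 higher, and with array weights 672 lower and 734 higher. An unadjusted p under 0.001 was found for 4 probe sets, likewise fewer than a share of 0.001 of them. All had lower values in Spi-7: Cdca3, Gcat, Lypd8l1 and a probe set that matches several Hmgb2 genes. The centre of the differences was close to 0, with a median of -0.0027, and 95% of them lay between -0.40 and 0.28. The tail was longer on the negative side. A difference below -1 occurred in 21 probe sets and one above 1 in 0, with extremes of -1.91 and 0.91. Without Spi-2 replicate 4, 4 probe sets had a difference below -1. The fit bounded most differences. The 95% interval lay inside ± 1 in 12618 probe sets (97.7%) and inside ± 0.5 in 9377 (72.6%), and it reached a median of 0.29 to either side. Against Control, the same fit called 1146 probe sets (8.87%) at day 2 and 334 (2.59%) at day 7 at an adjusted p under 0.05. Those comparisons share the 4 controls, and the difference between the days is the contrast with no call.

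**Figure D1:**
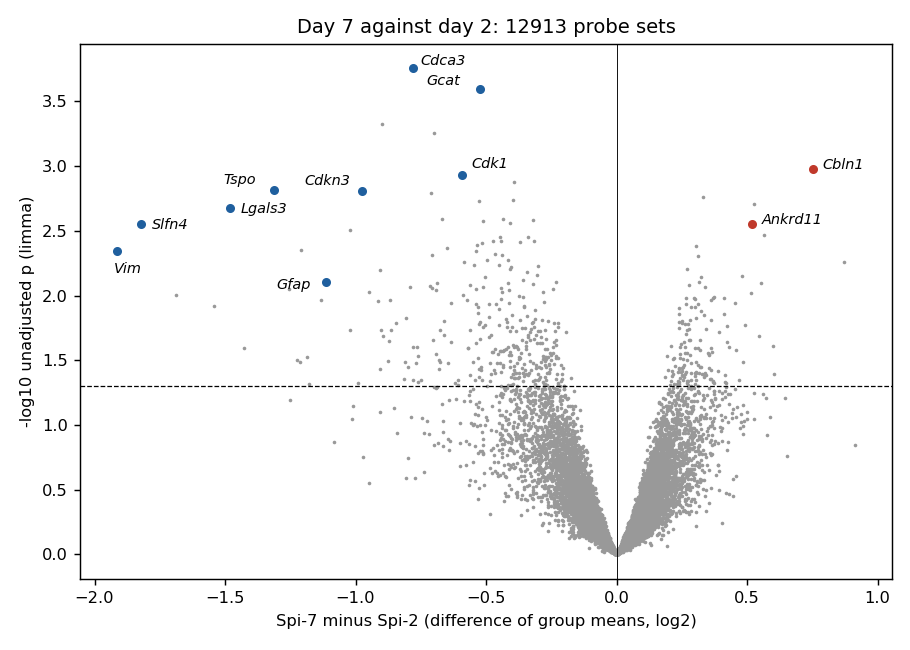
Difference between the group means of Spi-7 and Spi-2 (x axis, log2) against -log10 of the unadjusted p of limma (y axis) for the 12913 probe sets, 1 point each. The dashed line marks an unadjusted p of 0.05, and blue and red points are named genes with lower and higher means in Spi-7. The cloud extends to -1.91 on the left and to 0.91 on the right, and no point had an adjusted p under 0.05.

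Since no probe set was called, the genes named first are those with a symbol of their own whose animals did not overlap between the groups, 10 in each direction by the smallest unadjusted p. Every adjusted p of these genes was 0.999 or more in limma. Of all probe sets, 19 (0.147%) had every Spi-7 animal above every Spi-2 animal and 31 (0.24%) every Spi-7 animal below. Of the 462 ways to draw 5 of 11 arrays, a share of 0.00433 separates the groups fully in either direction. Where no probe set differs, this share of them lacks overlap on average, which is more than these counts add up to. A lack of overlap therefore describes the values and is no call. The highest difference without overlap was that of Cbln1, the secreted synapse organizer cerebellin-1. Its levels were 6.50, 6.44, 7.42, 6.44 and 6.28 in the 5 Spi-7 animals, and the 6 Spi-2 animals had a lowest level of 5.58, a median of 5.87 and a highest level of 6.02. The groups did not overlap, and replicate 3 was the highest of the Spi-7 animals. The difference was 0.75 ± 0.21 (unadjusted p = 0.00106), with a 95% interval of 0.33 to 1.18. The Control animals stood at 6.26 to 6.66, a range that the Spi-2 animals stayed below. Ankrd11, a chromatin regulator, had levels of 4.42, 4.40, 4.27, 4.48 and 4.98 at day 7 and a lowest, median and highest level of 3.83, 3.99 and 4.21 at day 2. Its difference was 0.52 ± 0.16 (unadjusted p = 0.00281).

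Other genes without overlap had smaller differences and varied functions. Abcg2, an efflux transporter of brain vessels, stood at 7.50, 7.42, 7.65, 7.68 and 7.63 in Spi-7 and at 6.89, 7.15 and 7.25 (lowest, median and highest) in Spi-2, a difference of 0.45 ± 0.17. All 11 animals lay below the lowest Control animal, which had 7.71. Begain, a protein of the postsynaptic density, had 5.17 to 5.28 at day 7 against 4.57 to 5.07 at day 2, and Hat1, a histone acetyltransferase, 9.70 to 10.01 against 9.34 to 9.61. Their differences were 0.36 ± 0.13 and 0.32 ± 0.15. The other 5 genes, Prss30, Golim4, Pi16, Bltp3a and Scnn1g, had differences between 0.21 and 0.28. Scnn1g encodes the gamma subunit of the epithelial sodium channel, and the group medians of all 5 lay between 4.91 and 5.62.

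Lower levels without overlap were found for Gcat, the mitochondrial enzyme glycine C-acetyltransferase of threonine breakdown. Its levels were 6.68, 6.70, 6.84, 6.92 and 6.78 in the Spi-7 animals, and in the Spi-2 animals they ran from 7.05 to 7.71 with a median of 7.27. Every Spi-2 animal was above the Control range of 6.30 to 6.78, and the Spi-7 animals lay around the upper end of that range. The difference was -0.52 ± 0.13 (unadjusted p = 0.000252), and it lay between -0.60 and -0.44 under all alternatives tried. Gfap, the filament protein of astrocytes, had the largest difference of these 20 genes. The Spi-7 animals had levels of 10.38, 9.92, 9.31, 10.56 and 10.86, and the Spi-2 animals a lowest level of 11.17, a median of 11.23 and a highest level of 11.56. The day 2 animals were close together and the day 7 animals were spread out below them. The difference was -1.11 ± 0.39 (unadjusted p = 0.00782), with a 95% interval of -1.91 to -0.31. The 4 Control animals had 8.06 to 9.52. Gfap passed the test against Control at day 2 (2.45 ± 0.42, adjusted p = 0.000461, limma) and did not at day 7 (1.33 ± 0.43, adjusted p = 0.0967, limma). Gfap was singled out by the same Spi-2 and Spi-7 values, so that these tests are no separate support for a difference between the days. Of the 11 astrocyte markers measured, Gfap included, 3 had a lower mean at day 7, and S100b, a calcium-binding protein of astrocytes, had a difference of 0.36 ± 0.17.

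Hm13, the signal peptide peptidase of the endoplasmic reticulum, stood at 7.19, 7.25, 7.11, 7.24 and 7.24 in Spi-7 and at 7.27 to 7.80 (median 7.64) in Spi-2, a difference of -0.40 ± 0.12. Stard4, a carrier of cholesterol, stood at 6.41, 6.16, 6.20, 6.21 and 6.22 against 6.43 to 6.87 (median 6.64), a difference of -0.41 ± 0.13. In both genes the highest Spi-7 animal lay just below the lowest Spi-2 animal. Blvrb, a biliverdin reductase of heme breakdown, differed by -0.52 ± 0.17, the small GTPase Ralb by -0.32 ± 0.10, Lrrc41 by -0.37 ± 0.12, Cacng1, a calcium channel subunit of muscle, by -0.41 ± 0.14 and Rpp21, a subunit of ribonuclease P, by -0.30 ± 0.11. The adjusted p of the 20 genes stayed above 0.05 under all 22 alternatives.

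**Figure D2:**
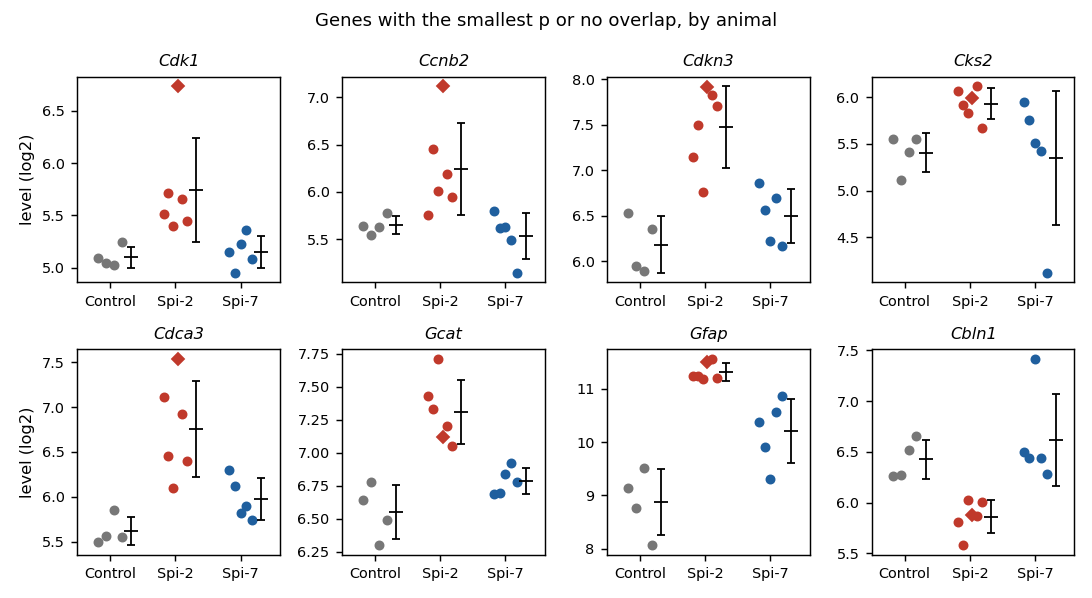
Levels (log2, y axis of each panel) of 8 genes in the 4 Control, 6 Spi-2 and 5 Spi-7 animals. Points are animals, the diamond is Spi-2 replicate 4, and the bar to the right of each group is its mean ± SD. In Cdk1, Gcat and Gfap every Spi-7 animal lies below every Spi-2 animal, in Cbln1 every Spi-7 animal lies above, and in Ccnb2, Cks2, Cdca3 and Cdkn3 the groups overlap.

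Among the gene lists, that of cell division had the largest share of genes with an unadjusted p under 0.05 and a lower level at day 7. Cyclins and cyclin-dependent kinases drive a dividing cell through its cycle, and adult motor neurons do not divide. Of the 34 measured genes of a cell cycle list, 11 were lower in Spi-7 at an unadjusted p under 0.05 (32.4%, against 2.51% of all 9769 genes) and 0 were higher (1.02% of all genes). The list had a median difference of -0.12 where the median of all genes was -0.0049, and 26 of its 34 genes were below 0. The list's counts carry no test of their own, and no member passed the adjusted test. Cdk1, the kinase that starts mitosis, stood at 5.15, 4.95, 5.23, 5.36 and 5.08 at day 7 and had a lowest level of 5.40, a median of 5.59 and a highest level of 6.73 at day 2. The groups did not overlap, and the highest value was that of Spi-2 replicate 4. The difference was -0.59 ± 0.17 (unadjusted p = 0.00118), and -0.40 without that array. The Control animals, at 5.02 to 5.24, were in the range of day 7. Cdkn3, a phosphatase that binds cyclin-dependent kinases, stood at 6.86, 6.56, 6.22, 6.69 and 6.17 at day 7 and at 6.76 to 7.92 (median 7.60) at day 2. A single Spi-7 animal reached into the range of Spi-2. The difference was -0.98 ± 0.28, and -0.89 without Spi-2 replicate 4.

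Ccnb2, or cyclin B2, stood at 5.80, 5.62, 5.63, 5.49 and 5.14 at day 7 and at 5.76 to 7.12 (median 6.10) at day 2, a difference of -0.71 ± 0.21. Cks2, a small subunit of cyclin-dependent kinases, stood at 5.95, 5.75, 5.51, 5.42 and 4.12 against 5.67 to 6.11 (median 5.96), a difference of -0.58 ± 0.20. The low end of Cks2 was Spi-7 replicate 5, and without it the difference was -0.28. Cdca3, a trigger of mitotic entry that lies outside the list and is named because it had the smallest unadjusted p of all probe sets (0.000176), stood at 6.30, 6.12, 5.82, 5.89 and 5.75 against 6.10 to 7.54 (median 6.69). Its difference was -0.78 ± 0.18, with a 95% interval of -1.15 to -0.41. Against Control it passed the test at day 2 (1.14 ± 0.19, adjusted p = 0.000464, limma) and did not at day 7 (0.36 ± 0.20, adjusted p = 0.401, limma). Over the cell cycle list, 7 of 34 genes were called higher than Control at day 2 (4.38% of all genes) and 0 at day 7 (1.05%). Cdca3 and this list were singled out by the same Spi-2 and Spi-7 values. Their results against Control are therefore no separate support for a difference between the days. The mean level of the list was 5.88 to 6.44 over the Spi-2 animals and 5.82 to 6.02 over the Spi-7 animals, with Control at 5.72 to 5.85. The microglia and macrophage markers had the same highest animals as the list, and other animals differed in rank. As differences from the Control mean, Spi-2 replicates 4 and 5 were highest of their group in both (0.65 and 0.36 for the cell cycle list, 1.61 and 1.05 for the markers), and so was Spi-7 replicate 1 (0.23 and 0.93). Spi-7 replicate 4 lay below replicates 2 and 3 for the list (0.05 against 0.09 and 0.08). It lay above them for the markers (0.68 against 0.43 and 0.30). Spi-2 replicate 4 was also highest of its group in other lists, such as the meningeal fibroblast markers (3.15). The part of these cell types in the result was not tested. Without Spi-2 replicate 4, 8 genes were lower at an unadjusted p under 0.05 (1.72% of all genes were lower and 0.696% higher in that fit) and the median difference was -0.07. Without Spi-7 replicate 5, 7 were lower, and without both arrays together 3 were. In these 2 fits 277 and 197 of all 12913 probe sets were lower, against 313 in the main fit.

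The 4 cell cycle genes with the smallest unadjusted p have start sites whose upstream sequence is shown because promoters of mitotic genes are known for the CCAAT box and for the element TTTGAA. The 150 bases before the RefSeq start (build GRCr8, 5′ to 3′ on the strand of the gene) are given in lower case, with CCAAT or TTTGAA on either strand in capitals (ATTGG and TTCAAA are the other strand).
Cdk1 (chr20:19265143-19265292, plus strand): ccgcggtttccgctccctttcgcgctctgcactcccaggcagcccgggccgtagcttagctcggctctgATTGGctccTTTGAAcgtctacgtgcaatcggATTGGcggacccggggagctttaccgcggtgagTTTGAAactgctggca
Cdkn3 (chr15:22502236-22502385, plus strand): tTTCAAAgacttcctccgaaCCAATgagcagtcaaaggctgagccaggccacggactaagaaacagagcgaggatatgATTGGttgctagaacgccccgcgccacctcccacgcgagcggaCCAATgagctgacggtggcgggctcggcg
Ccnb2 (chr8:79981659-79981808, minus strand): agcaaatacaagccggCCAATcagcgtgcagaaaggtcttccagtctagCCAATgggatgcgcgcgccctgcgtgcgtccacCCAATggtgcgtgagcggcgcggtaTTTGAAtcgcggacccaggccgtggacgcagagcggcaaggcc
Cks2 (chr17:13727520-13727669, minus strand): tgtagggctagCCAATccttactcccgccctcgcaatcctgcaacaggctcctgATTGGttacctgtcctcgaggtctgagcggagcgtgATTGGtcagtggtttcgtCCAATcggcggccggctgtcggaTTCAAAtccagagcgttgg
All 4 windows held both motifs. Over 27457 RefSeq promoters of the same window, 23.7% held a CCAAT, 9.12% a TTTGAA and 2.28% both. Of the 34 list genes, 26 had an entry, of which 17 held a CCAAT, 7 a TTTGAA and 7 both. A match says that the letters are in the window and nothing of a factor bound there.

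Several of the 21 probe sets with a difference below -1 belonged to genes of glia, macrophages and connective tissue, and the differences of those named here were smaller without Spi-2 replicate 4. In pooled somata, fewer cells of a type and less RNA per cell cannot be told apart. The genes of this paragraph other than Coro1a were named after their values were seen. Vim, the filament protein vimentin of reactive glia and fibroblasts, had the largest difference of all probe sets. Its levels were 6.72, 6.74, 6.13, 7.43 and 6.22 at day 7 and 6.99, 7.79, 7.90, 12.44, 8.91 and 7.35 in Spi-2 replicates 1 to 6. The groups overlapped, and replicate 4 stood apart. The difference of -1.91 ± 0.63 was -1.14 without it. Tspo, a mitochondrial membrane protein of activated glia, stood at 8.07, 7.19, 6.83, 7.66 and 6.84 against 7.43 to 10.39 (median 8.42), a difference of -1.31 ± 0.38, and -0.96 without replicate 4. Lgals3, the lectin galectin-3 of phagocytes, stood at 7.39, 7.00, 6.07, 7.03 and 7.46 against 6.96 to 9.53 in the 5 Spi-2 animals other than replicate 4, which was higher than these, a difference of -1.48 ± 0.44, and -0.97 without that array. Both genes overlapped between the days. The Control range was 6.04 to 6.60 for Tspo, below all 11 injured animals, and 6.63 to 6.94 for Lgals3, inside the range of day 7. Coro1a, an actin-binding protein of leukocytes, differed by -0.91 ± 0.34, with 7.10 to 8.00 at day 7 against 7.36 to 9.75 at day 2.

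Over the whole list of microglia and macrophage markers, 19 of 22 genes had a lower mean at day 7 and 2 were lower at an unadjusted p under 0.05 (Coro1a and Gpnmb, 9.09% against 2.51% of all genes), with 0 higher. The median difference was -0.32, and -0.10 without Spi-2 replicate 4. The mean level of the list was 6.28 to 7.40 in Spi-2, 5.98 to 6.72 in Spi-7 and 5.67 to 5.89 in Control, so that all 11 injured animals lay above the controls. Against Control 6 of the 22 were called higher at day 2 (4.38% of all genes) and 1 at day 7 (1.05%). Among the defining markers of the list, Aif1 (Iba1) had a difference of -0.43 ± 0.49 and C1qa, a complement subunit of microglia, one of -0.53 ± 0.51. Their 95% intervals ran from -1.43 to 0.57 and from -1.56 to 0.51, wide enough to hold a difference of 1 in the negative direction. Aif1 stood at 7.86, 7.08, 6.51, 7.13 and 5.19 in Spi-7 and at 5.84 to 8.30 (median 7.00) in Spi-2, and the groups overlapped.

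Connective tissue genes were high in a single day 2 animal. The mean level of 9 meningeal fibroblast markers was 9.06 in Spi-2 replicate 4, 5.28 to 5.86 in the other 5 Spi-2 animals, 5.38 to 5.86 in Spi-7 and 5.58 to 6.47 in Control. Col1a2, a chain of type I collagen, stood at 11.55 in that array and at 5.40 to 6.28 in the rest of the group, with 5.26, 4.86, 5.94, 5.74 and 5.49 in Spi-7. Its difference went from -1.43 ± 0.61 to -0.50 without the array, and that of lumican (Lum), a proteoglycan of the matrix, from -1.18 ± 0.52 to -0.37. The 83 genes of extracellular matrix and its proteases, with 7 lower and 1 higher (Hapln1) at an unadjusted p under 0.05, against 2.51% and 1.02% of all genes, had 2 lower and 0 higher without it, against 1.72% and 0.696%. The lower count was 4 without Spi-7 replicate 2, 11 without Spi-2 replicate 3 and 13 without Spi-2 replicate 2. In these fits 254, 375 and 404 of all 12913 probe sets were lower, against 313 in the main fit. Markers of neutrophils, Schwann cells, lymphocytes, endothelium and red cells were likewise highest in Spi-2 replicate 4 among the Spi-2 animals, with list means of 6.29, 8.13, 5.72, 6.36 and 7.26 against highest means of 5.45, 7.15, 5.34, 5.91 and 6.65 in the other 5. Their part in the differences was not tested beyond leaving out the array.

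**Figure D3:**
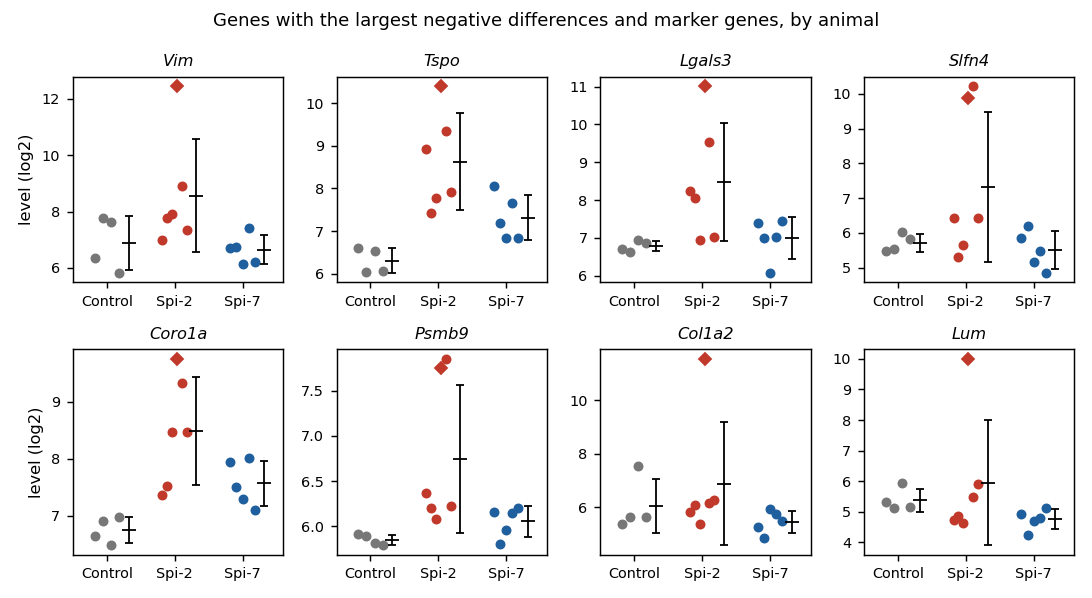
Levels (log2, y axis of each panel) of 8 genes in the 4 Control, 6 Spi-2 and 5 Spi-7 animals. Points are animals, the diamond is Spi-2 replicate 4, and the bar to the right of each group is its mean ± SD. Vim, Col1a2 and Lum are high in Spi-2 replicate 4 (12.44, 11.55 and 10.00), and Slfn4 and Psmb9 in replicates 4 and 5 of Spi-2.

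Interferon-response genes were high in 2 of the 6 day 2 animals. Interferons induce a set of antiviral and antigen-presenting genes in most cell types. Of 45 measured genes of interferon response and antigen presentation, 6 were lower at day 7 at an unadjusted p under 0.05 (Psmb9, Stat2, Psmb8, Irf7, Ifitm1 and Oas1a), against 2.51% of all genes, and 0 were higher (1.02%). The median difference was -0.25, and 40 of the 45 were below 0. The mean level of the list was 7.21 and 7.47 in Spi-2 replicates 4 and 5, against 6.41 to 6.47 in the other 4 Spi-2 animals, 6.38 to 6.47 in Spi-7 and 6.24 to 6.37 in Control. Slfn4, a Schlafen gene induced by interferon, stood at 9.88 and 10.21 in these arrays and at 5.32 to 6.44 in the other 4, with 5.85, 6.20, 5.15, 5.47 and 4.85 in Spi-7. Its difference was -1.82 ± 0.56. Psmb9, a subunit of the immunoproteasome, stood at 7.75 and 7.85 in these arrays and at 6.08 to 6.37 in the others, with 6.16, 5.80, 5.96, 6.15 and 6.20 in Spi-7, a difference of -0.69 ± 0.25. Irf7, the transcription factor that amplifies the response, reached 9.81 in replicate 5 and 7.43 in replicate 4, against 5.94 to 6.53 in Spi-7. Without replicate 4, and likewise without replicate 5, 2 genes of the list were lower, without Spi-7 replicate 3, 3 were, and without Spi-2 replicate 2, 10 were. Of all 12913 probe sets, 204, 240, 257 and 404 were lower in these 4 fits, against 313 in the main fit. In the fit without replicates 4 and 5 the median difference was -0.03 and 0 had an unadjusted p under 0.05. Of all 12913 probe sets, 129 were lower in that fit.

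**Figure D4:**
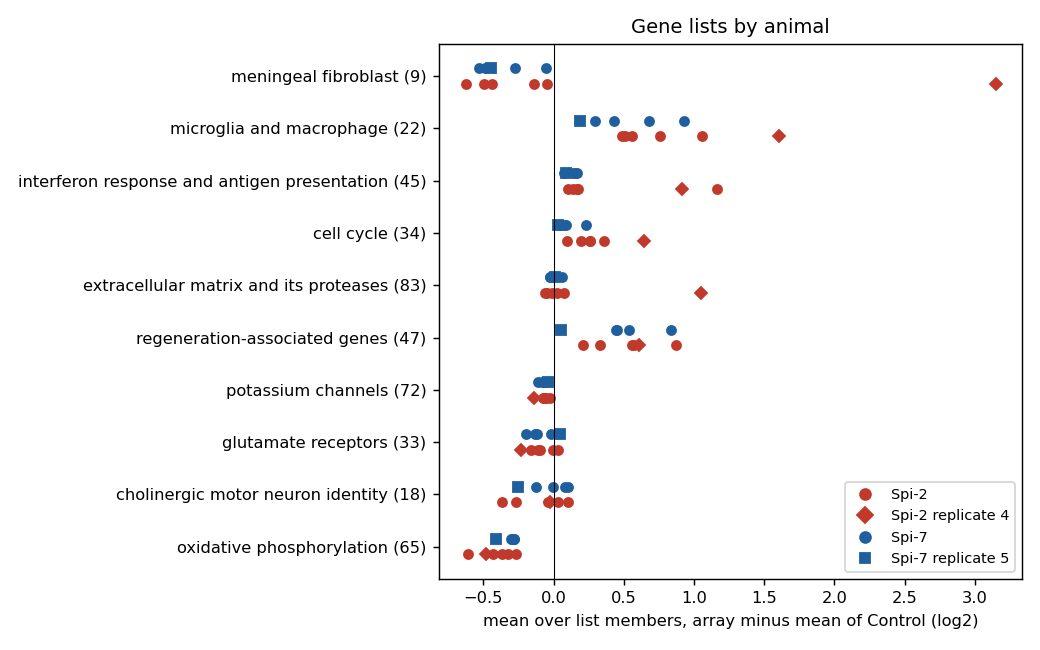
Mean over the members of 10 gene lists in each Spi-2 animal (red) and Spi-7 animal (blue), as the difference from the mean of the Control animals (log2, x axis), with the number of genes in parentheses. Diamonds are Spi-2 replicate 4 and squares Spi-7 replicate 5. Spi-2 replicate 4 lies far to the right for meningeal fibroblast and matrix genes, 2 Spi-2 animals lie apart for interferon genes, and in the channel, receptor and motor neuron lists the animals of the 2 days overlap.

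Injury-response genes and other genes looked at against Control are described next, none of which had an unadjusted p under 0.05 between the days. They were named for their values against Control, and those comparisons share the 4 controls, so that their values are given side by side. Atf3 had levels of 11.54, 10.22, 8.66, 10.15 and 7.70 in Spi-7 and of 8.00 to 11.88 (median 10.60) in Spi-2, with Control at 5.52 to 8.23. It was called higher than Control at day 2 (3.95 ± 0.71, adjusted p = 0.000662, limma) and at day 7 (3.18 ± 0.74, adjusted p = 0.0133, limma). Between the days the difference was -0.77 ± 0.66, and its 95% interval of -2.13 to 0.59 left a wide range. The p75 neurotrophin receptor Ngfr stood at 9.19, 9.24, 9.17, 8.29 and 6.63 in Spi-7 and at 6.05 to 9.03 (median 8.46) in Spi-2, above the Control range of 5.27 to 5.82 in all 11 animals. The difference was 0.31 ± 0.59, and it turned to -0.12 without Spi-2 replicate 2. The matrix metalloproteinase Mmp3 stood at 8.07, 7.74, 8.37, 6.74 and 6.69 against 5.83 to 8.11 (median 7.20), a difference of 0.46 ± 0.39.

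Tubb2b, a tubulin of growing axons, stood at 12.70, 12.75, 12.36, 12.32 and 11.99 against 11.97 to 13.03 (median 12.51), with Control at 10.35 to 10.88. Its difference of -0.08 ± 0.29 had an interval of -0.68 to 0.51, inside ± 1. Cnr1, the cannabinoid receptor of presynaptic terminals, stood at 4.99, 5.10, 5.28, 5.74 and 5.84 against 4.70 to 5.76 (median 5.35), below the Control range of 6.11 to 7.79. Its difference was 0.12 ± 0.25, with an interval of -0.39 to 0.62. Mbp, the myelin basic protein of oligodendrocytes, stood at 8.50, 8.91, 8.67, 9.45 and 9.43 against 8.19 to 8.77 (median 8.52), a difference of 0.49 ± 0.29, with Control at 9.49 to 11.55. Of 47 genes associated with regeneration, 0 had an unadjusted p under 0.05 in either direction, the median difference was -0.04, and 37 had a 95% interval inside ± 1. Of all 9769 genes, 2.51% were lower, 1.02% were higher and 9530 had such an interval. Against Control their median was 0.37 at day 2 and 0.29 at day 7, with 13 and 5 genes called higher (4.38% and 1.05% of all genes) and 1 and 0 called lower (5.49% and 1.82%).

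**Figure D5:**
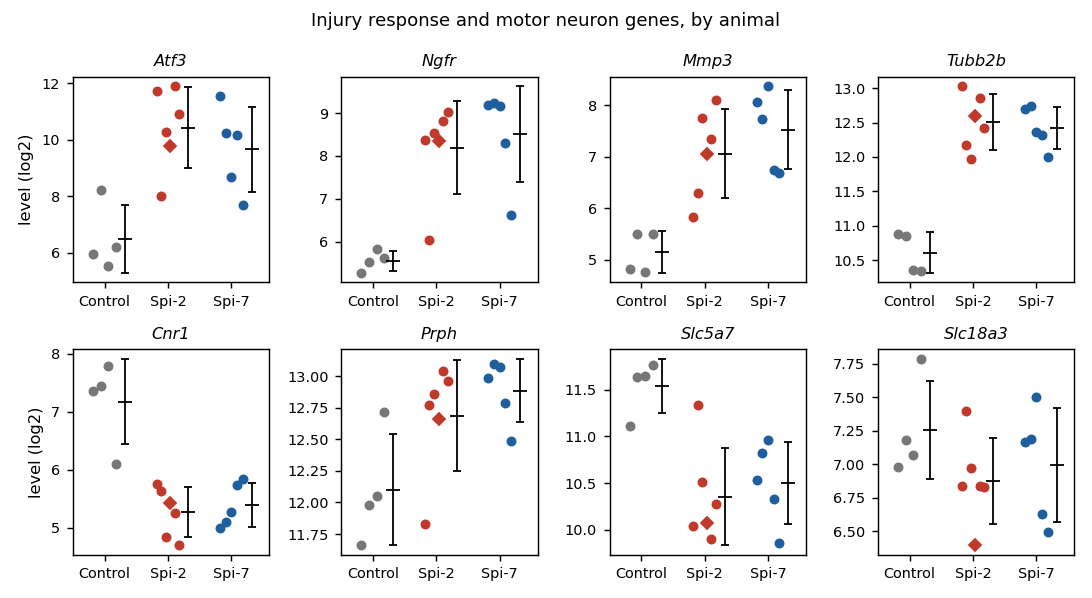
Levels (log2, y axis of each panel) of 8 injury-response and motor neuron genes in the 4 Control, 6 Spi-2 and 5 Spi-7 animals. Points are animals, the diamond is Spi-2 replicate 4, and the bar to the right of each group is its mean ± SD. The animals of the 2 days overlap in all 8 panels, with Ngfr and Tubb2b above and Cnr1 below every Control animal on both days.

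No measured gene of motor neuron identity had an unadjusted p under 0.05 between the days. Prph stood at 12.98, 13.10, 13.07, 12.79 and 12.49 in Spi-7 and at 11.83 to 13.04 (median 12.81) in Spi-2, a difference of 0.20 ± 0.18. Slc5a7 stood at 10.54, 10.83, 10.96, 10.33 and 9.85 against 9.90 to 11.33 (median 10.18), a difference of 0.15 ± 0.29. The vesicular acetylcholine transporter Slc18a3 differed by 0.12 ± 0.25 and the homeobox gene Isl2 by 0.08 ± 0.12. All 5 measured motor neuron markers had a 95% interval inside ± 1, as had all 18 genes of a wider list of cholinergic motor neuron identity. So had 9530 of all 9769 genes. Inside ± 0.5 lay 2 of the 5 and 6 of the 18, against 7015 of all genes, so that these genes were bounded less closely than most. Of the 18, 0 had an unadjusted p under 0.05, where 2.51% of all genes were lower and 1.02% higher.

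Among the channels and receptors that set excitability, 0 of 72 potassium channel genes and 0 of 33 glutamate receptor genes had an unadjusted p under 0.05. An interval inside ± 1 was found for 71 and 33 of them, and for 9530 of all 9769 genes. The mean levels of these lists were low, at 5.87 to 5.99 and 6.10 to 6.36 in Spi-2, against 6.58 to 6.67 for all genes. Whether low signal narrowed their intervals was not tested. Of 24 GABA and glycine receptor genes 1 was lower, the glycine receptor subunit Glra1, with a difference of -0.23 ± 0.10. Of 45 genes in the list of monoamine and acetylcholine receptors 1 was higher, the noradrenaline transporter Slc6a2 (0.23 ± 0.11). Of 35 genes of calcium channels and release, 1 was lower (Cacng1) and 2 were higher, the beta subunits Cacnb4 (0.36 ± 0.14, and 0.21 without Spi-2 replicate 2) and Cacnb2 (0.26 ± 0.12). Of 11 sodium channel genes 1 was higher. This was Scn4b, a beta subunit linked to resurgent current, at 11.51, 11.74, 11.78, 11.38 and 11.72 in Spi-7 and at 11.03 to 11.52 (median 11.34) in Spi-2, with Control at 11.51 to 11.66. The groups overlapped, and the difference was 0.30 ± 0.11 (unadjusted p = 0.0123). Of all genes 2.51% were lower and 1.02% higher, and each count here is of 2 genes or fewer, none with an adjusted p under 0.05. Robo1, an axon guidance receptor, was the single higher gene of 40 in that list, with 5.65, 5.58, 5.61, 5.75 and 6.09 against 5.25 to 5.60 (median 5.42) and a difference of 0.31 ± 0.10.

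Genes of energy metabolism were compared next. Of 65 genes of oxidative phosphorylation, 28 were called lower than Control at day 2 (5.49% of all genes) and 10 at day 7 (1.82%), with medians of -0.47 and -0.35. Between the days the median difference was 0.11, 18 of the 65 were below 0, and 1 was higher at an unadjusted p under 0.05 (1.02% of all genes). The median lay between 0.05 and 0.15 under the 22 alternatives. The count of higher genes was 9 without Spi-2 replicate 2, 5 without Spi-7 replicate 5, and 16 with array weights. In these fits 264, 281 and 734 of all 12913 probe sets were higher, against 147 in the main fit. Spi-7 replicate 5 had the lowest list mean of its group (9.42). The gene counted was Cox7c, a subunit of cytochrome c oxidase, at 10.94, 10.84, 10.96, 10.57 and 10.52 in Spi-7 and at 10.28 to 10.89 (median 10.39) in Spi-2, a difference of 0.31 ± 0.14. All 65 had a 95% interval inside ± 1 and 38 inside ± 0.5, against 9530 and 7015 of all 9769 genes. The 23 genes of the tricarboxylic acid cycle had a median difference of 0.08 with 0 at an unadjusted p under 0.05, and the 68 mitochondrial ribosomal proteins one of 0.03 with 1 higher (Mrpl13, 0.32 ± 0.14). In the main fit 2.51% of all genes were lower and 1.02% higher, and the counts of these 3 lists in that fit are near those shares.

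Cholesterol and lipid genes had 4 of 33 lower and 1 higher, against 2.51% and 1.02% of all genes. Besides Stard4 the lower ones were Hsd17b7, Tm7sf2 and Mvd, enzymes of cholesterol synthesis, of which Mvd stood at 7.56, 7.41, 7.25, 7.35 and 7.33 against 7.44 to 8.12 (median 7.71), a difference of -0.36 ± 0.14. The higher one was Acat1, a mitochondrial thiolase. The count of lower genes was 1 without Spi-2 replicate 5, 2 without Spi-2 replicate 2 or Spi-7 replicate 4, and 5 without Spi-2 replicate 4. In these fits 240, 404, 374 and 204 of all 12913 probe sets were lower, in the same order. Of 36 genes of ATF4 and endoplasmic reticulum stress 3 were lower (Sdf2l1, Slc3a2 and Xbp1) and 1 higher, against the same shares of all genes, and 1 was lower without Spi-2 replicate 4 or without replicate 5. Sdf2l1, a protein of the endoplasmic reticulum that is induced when proteins misfold, stood at 8.06, 7.76, 7.79, 7.99 and 7.94 against 7.91 to 8.75 (median 8.43), a difference of -0.53 ± 0.15. The higher gene was Chac1, an enzyme of glutathione breakdown (0.42 ± 0.17).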

How the data were processed

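Each array measured amplified RNA of laser-cut tail motor neurons of 1 rat, and groups were read from the titles of the samples. The authors deposited log2 expression values: they removed probe sets outside Ensembl's annotation, compensated the background, quantile normalized, and summarized by RMA (named without a version in the submitters' processing notes), and then compensated and normalized the summaries. This left 12919 probe sets, and 6 control sets were left out here. Raw arrays were not used, so that these steps could not be varied, and the number of arrays limits the precision. Of the 12913 probe sets tested, 11880 matched 1 gene symbol, 320 several and 713 none.

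From the deposited log2 values a mean for each of the 5 groups was fitted to 31 arrays with limma 3.58.1 in R 4.3.3 (moderated variances, two-sided, no covariate), and the contrast of Spi-7 minus Spi-2 was adjusted by Benjamini-Hochberg over all probe sets. The other groups entered for a common estimate of the spread. Lists took 1 probe set per gene, the highest mean over all arrays, which gave 9769 genes. Exact permutation tests used scipy 1.17.1 in Python 3.11.15. The script was tested on simulated data.

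Named genes follow a rule. Called genes with 1 symbol and no overlap of the animals were filled, where fewer than 10 in a direction, to 10 by the smallest unadjusted p. From a list described, up to 4 genes were taken in order of p, and from some lists none. Others were named after their values were seen: Cdca3, Lypd8l1, Vim, Tspo, Lgals3, Slfn4, Lum, Col1a2, Atf3, Sprr1a, Ngfr, Mmp3, Cnr1, Slc18a3, Slc5a7, Prph, Isl2, Aif1, C1qa, Tubb2b, and the members that complete a count. The comparison and the lists were chosen with earlier results of these data known. Promoter sequences are from RefSeq (GRCr8).

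Alternatives were the arrays in the fit, the replicate number as a block, a further quantile normalization, array weights, the Gapdh 3′ difference as a covariate, a filter on the dimmest 25%, an intensity trend with a robust prior, 1 probe set per gene, and leaving out each array. Leaving out Spi-2 replicates 4 and 5 together, and Spi-2 replicate 4 with Spi-7 replicate 5, was added after seeing the data.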

Additional observations from a re-analysis of the deposited data

Results flagged for a closer look

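A value was singled out where the highest or lowest animal of a group lay farther from its nearest neighbour than Dixon's 95% critical value allows. Chance gives this in about 1 of 20 groups of independent, normal values chosen beforehand. The rule was applied to 184 groups of values (the named genes, the gene lists and the array measures, in Spi-2 and in Spi-7) and met by 30. These groups share arrays, and many genes were named for their values, so that the 30 cannot be set against that rate. Spi-2 replicate 4 accounted for 14 of them. It was the highest of its group in Vim (12.44), Col1a2 (11.55), Lum (10.00) and Cdk1 (6.73), and in the mean level of meningeal fibroblast (9.06), Schwann cell (8.13), erythroid (7.26), endothelium and pericyte (6.36), neutrophil (6.29) and lymphocyte (5.72) markers, immediate early genes (7.22), complement and coagulation genes (7.06), extracellular matrix genes (6.92) and cytokine receptors (6.31). Spi-7 replicate 5 accounted for 6. It had the lowest interquartile range (1.75), the lowest mean level of oxidative phosphorylation (9.42), mitochondrial ribosomal protein (7.95) and splicing (7.05) genes, and the highest of monoamine and acetylcholine receptors (5.51) and of Prss30 (5.37). The other 10 were scattered over the remaining arrays. The values were Cbln1 at 7.42 in Spi-7 replicate 3, Stard4 at 6.41 in Spi-7 replicate 1, Rpp21 at 6.60 in Spi-7 replicate 3, Bltp3a at 5.16 in Spi-2 replicate 1, Prph at 11.83 in Spi-2 replicate 1, Ngfr at 6.05 in Spi-2 replicate 2, Sprr1a at 9.08 in Spi-2 replicate 5, GABA and glycine receptors at 5.77 in Spi-2 replicate 3, cell cycle genes at 6.02 in Spi-7 replicate 1 and lymphocyte markers at 5.22 in Spi-7 replicate 2.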

How the results depend on the processing

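The count of probe sets at an adjusted p under 0.05 was 0 in limma under all 22 alternatives, and the smallest adjusted p ran from 0.172 (without Spi-2 replicate 3) to 1.00. The count at an unadjusted p under 0.05 was 460. Array weights gave 1406 (672 lower and 734 higher in Spi-7) and a smallest adjusted p of 0.187, and leaving out Spi-2 replicates 4 and 5 together gave 234 (129 lower). Leaving out 1 array gave 315 to 668, with 204 to 419 lower (204 without Spi-2 replicate 4) and 111 to 281 higher (264 without Spi-2 replicate 2 and 281 without Spi-7 replicate 5). Without Spi-2 replicate 4 and Spi-7 replicate 5 together, 197 were lower. The share of lower values, 68.0%, was 55.4% after a further quantile normalization, 49.6% without Spi-7 replicate 5 and 47.8% with array weights. The cause was not tested. With a block for the replicate number, fitted to the 11 Spi-2 and Spi-7 arrays alone, 562 were counted, and 0 adjusted. Those arrays without the block gave 449. The replicate numbers did not pair the animals: deviations correlated at -0.12 to 0.25 over 5 pairs, and 2 of 5 Spi-7 animals correlated best with their own number. The difference in Gapdh 3′ minus 5′ (0.19) ran from 0.09 to 0.35 when 1 array was left out. That of the interquartile range (-0.04) ran from -0.052 to 0.012, turning to 0.012 without Spi-7 replicate 5. Of 224 probe sets followed through the alternatives 21 changed sign under at least 1. Of 51 list medians 4 moved by more than the spread between animals. With 5 and 6 animals the 95% interval of a probe set reached a median of 0.29 to either side, so that most differences smaller than this could not be told from 0.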
